A study of Mus musculus with 6 samples.

Results

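The 10 genes described here are the receptors *Notch1* and *Notch2*, the ligands *Dll1*, *Dll4*, *Jag1* and *Jag2*, and the target genes *Hey1*, *Hey2*, *Heyl* and *Hes1*, out of 14860 genes with a transcript cluster of their own on the array. Such a cluster groups the probes that the array holds for one gene. Members were taken by name. Each of the 10 had 1 cluster annotated to it alone. The naming rule uses no measured value, but the set was chosen with earlier results of these data known. Expression was measured in whole hearts at E9.5, blood included, on 6 Affymetrix Mouse Exon 1.0 ST arrays, and 4 to 6 hearts were pooled for every array. By their labels the 3 wildtype pools were Mesp1+/+; Hic2 FL/FL and the 3 mutant pools Mesp1Cre/+; Hic2 FL/FL, so that both carried floxed *Hic2* alleles and only the mutant carried Cre, made from the *Mesp1* locus in anterior mesoderm and its derivatives, which include the heart and some blood cells. The methods also allow wildtype hearts with a single floxed allele (Hic2 FL/+). Since Cre replaces one copy of *Mesp1*, the mutants also had a single working copy of that gene, and a group with Cre alone was not analysed here. Hearts were taken from embryos without a visible phenotype. *Hic2*, a transcriptional repressor and the deleted gene, lay at a mean log2 value of 9.21 in the wildtype and 8.29 in the mutant, and wildtype replicate 3 (8.91) was the wildtype pool nearest to the mutant.

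Notch signalling works between cells in contact. A ligand of the Delta-like or Jagged kind on one cell binds a Notch receptor on its neighbour, the receptor is cut inside the membrane by the gamma-secretase complex, and the freed intracellular part enters the nucleus, where it joins the DNA-binding protein RBPJ and coactivators of the Mastermind family to switch on *Hes* and *Hey* genes. These encode basic helix-loop-helix repressors. In the early heart, Notch1 and Dll4 act in the endocardium, the inner lining of the heart tube, where the pathway supports trabeculation and the formation of the valve cushions. *Hey1* is a marker of the atrial and *Hey2* of the ventricular myocardium, and both restrict the atrioventricular canal.

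The windows around the start of the genes are shown for the 2 genes among the receptors and ligands with lower values in every mutant pool, *Notch1* and *Dll1*, and for the target *Hey2*. Sequences are those of RefSeq on GRCm38.p6, from 250 bases before to 50 after a gene start, given 5′ to 3′ on the strand of the gene. Windows matched 7 of the 10 genes, all but *Hey1*, *Heyl* and *Hes1*, and *Dll1* had 2 of them. Capitals mark GTGGGAA, the letters of an RBPJ site, and GGGCA, which lies within the sequence bound by the related protein HIC1, on either strand (TTCCCAC and TGCCC). The printed windows are *Hey2* at chr10:30842734-30843033 (minus strand), *Notch1* at chr2:26503773-26504072 (minus strand) and *Dll1* at chr17:15375774-15376073 and chr17:15376883-15377182 (minus strand).
*Hey2*: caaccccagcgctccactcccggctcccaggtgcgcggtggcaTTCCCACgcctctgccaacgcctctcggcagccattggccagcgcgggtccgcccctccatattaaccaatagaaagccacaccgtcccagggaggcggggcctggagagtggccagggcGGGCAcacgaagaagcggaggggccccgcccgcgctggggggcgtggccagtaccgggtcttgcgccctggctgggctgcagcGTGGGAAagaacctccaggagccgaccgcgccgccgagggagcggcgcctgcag
*Notch1*: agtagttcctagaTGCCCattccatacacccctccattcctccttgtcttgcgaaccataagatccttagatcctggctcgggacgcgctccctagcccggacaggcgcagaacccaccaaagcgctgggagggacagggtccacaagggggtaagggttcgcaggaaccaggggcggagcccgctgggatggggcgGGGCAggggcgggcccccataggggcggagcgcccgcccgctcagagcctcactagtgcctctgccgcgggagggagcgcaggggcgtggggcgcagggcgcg
*Dll1*, inner start: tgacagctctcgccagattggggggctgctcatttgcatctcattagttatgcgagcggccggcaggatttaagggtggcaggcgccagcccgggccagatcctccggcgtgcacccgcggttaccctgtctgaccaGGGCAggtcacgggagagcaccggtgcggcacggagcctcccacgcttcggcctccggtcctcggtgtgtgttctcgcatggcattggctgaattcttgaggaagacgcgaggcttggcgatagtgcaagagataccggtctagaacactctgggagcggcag
*Dll1*, outer start: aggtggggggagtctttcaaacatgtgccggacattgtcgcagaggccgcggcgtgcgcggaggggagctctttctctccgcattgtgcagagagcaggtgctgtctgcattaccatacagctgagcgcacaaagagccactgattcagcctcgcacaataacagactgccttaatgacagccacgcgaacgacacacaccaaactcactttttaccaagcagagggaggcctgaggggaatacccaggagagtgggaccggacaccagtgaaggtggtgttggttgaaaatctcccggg
The *Hey2* window held the RBPJ letters at 2 places, beginning 207 and 4 bases before the gene start and with 196 bases between them. These letters were in 1 of the 8 windows of the 10 genes and in 6.38% of all 32851 windows of the same length, and 0.256% held them at 2 or more places. GGGCA was in 6 of the 8 windows against 53.5% of all, with 2 places in *Notch1* and 1 each in *Dll4*, *Jag1*, *Jag2*, *Hey2* and the inner window of *Dll1*. The letters CACGTG, an E-box to which Hey proteins bind, were in 0 of the 8 windows and in 7.15% of all. The matches overlapped nowhere in the windows printed, and a match describes the letters alone.

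The authors deposited the values on the log2 scale after RMA, which corrects background, normalises arrays to each other and sums the probes of a cluster. The median over all clusters was 7.18 to 7.31 per array. The labelled tissue carried its defining markers, with *Tnnt2*, the cardiac troponin T, between 13.60 and 13.65 and *Myl7*, the atrial myosin light chain of the early heart, between 13.93 and 14.06 on all arrays. Genotypes were compared with limma, a linear model with moderated variances, over 10439 clusters with a gene and a linear mean over 100 in the higher genotype, with Benjamini-Hochberg adjustment of the p-values over all of them. Of these clusters 71.8% lay below 0 (mutant minus wildtype), with a median of -0.09.

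In the mutant hearts, 9 of the 10 genes had a lower mean, by at most 23.8% in *Dll1*, and *Dll4* was level. At an adjusted p under 0.05 from limma, 0 of the 10 were called, in a comparison that called 0.0671% of all clusters. *Dll1*, *Heyl* and *Notch1* were lower with an unadjusted p under 0.05 (3 of 10, against 5.9% of all clusters), and 0 of 10 were higher (1.68% of all clusters). With a fold over 1.5 asked for as well, 0 of 10 were lower, against 0.431% of all clusters. In the same 3 genes the genotypes did not overlap, with the mutant lower, as in 9.59% of all clusters, and in 0 of 10 they lay apart with the mutant higher, as in 2.82%. The median log2 difference of the 10 genes was -0.18, against the -0.09 of all clusters. After quantile normalisation the medians were -0.11 and -0.03, and after cyclic loess -0.10 and -0.01. Without wildtype replicate 2 only *Dll1* stayed under an unadjusted p of 0.05 (1 of 10).

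**Figure D1:**
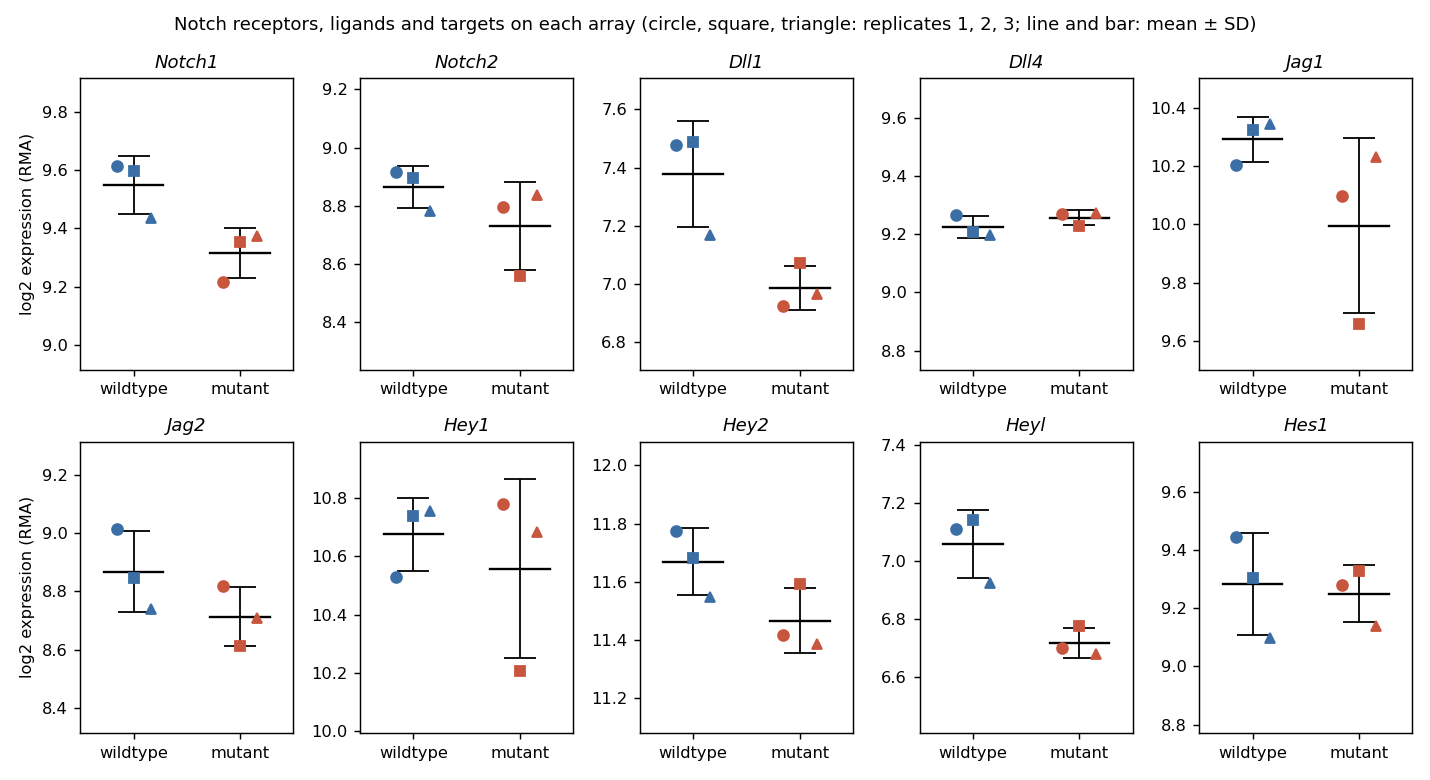
Log2 expression of the 10 genes (vertical axis, RMA values; every panel spans 1 log2 unit) in 3 wildtype (blue) and 3 mutant (red) heart pools, with symbols for replicates 1, 2 and 3 and lines and bars for the mean and SD. In *Notch1*, *Dll1* and *Heyl* the red points lie below all blue points, *Dll4* is flat, and *Jag1* and *Hey1* have a single low pool, mutant replicate 2.

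Of the receptors, *Notch1* was at 9.61, 9.60 and 9.43 in wildtype replicates 1, 2 and 3, and at 9.22, 9.35 and 9.37 in the mutant replicates. The genotypes did not overlap, but the lowest wildtype and the highest mutant pool lay close together. The log2 difference was -0.23 (standard error 0.102, 95% interval -0.47 to -0.00066, unadjusted p = 0.0495 and adjusted p = 0.606 from limma), or 14.9% lower. With the replicate number as a block its unadjusted p was 0.0603. *Notch2*, a receptor of broader expression, was at 8.92, 8.90 and 8.78 in the wildtype and 8.79, 8.56 and 8.84 in the mutant, so that the genotypes overlapped and mutant replicate 2 lay lowest. Its difference was -0.13 (standard error 0.110, 95% interval -0.39 to 0.12, adjusted p = 0.662 from limma), and -0.049 without mutant replicate 2. Within each array, the difference between the 2 receptors did not separate the genotypes (change of -0.10 for *Notch1* relative to *Notch2*, exact two-sided permutation p = 0.4).

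Among the ligands, *Dll1*, the Delta-like ligand known best from the segmentation of somites, had the largest difference of the 10 genes. Its log2 values were 7.48, 7.49 and 7.17 in the wildtype and 6.92, 7.07 and 6.96 in the mutant. All mutant pools were low, and of the wildtype pools replicate 3 came nearest to them. The difference was -0.39 (standard error 0.118, 95% interval -0.66 to -0.12, unadjusted p = 0.00954 and adjusted p = 0.606 from limma). *Dll1* lay not far above the filter, which is 6.64 on this scale. Markers of somites and presomitic mesoderm, the main sites of *Dll1* in the embryo, were mostly below it: 6 of 8 with a cluster were not tested, the other two (*Hes7* and *Uncx*) were at -0.08 and 0.12, and the summed linear level of the 8 was 829 to 865 in the wildtype and 788 to 901 in the mutant.
*Dll4*, the Delta-like ligand of endothelium and endocardium, was the steadiest of the 10 genes. It was at 9.27, 9.21 and 9.20 in the wildtype and 9.27, 9.23 and 9.27 in the mutant, and the genotypes overlapped. The difference was 0.03 (standard error 0.0896, 95% interval -0.17 to 0.24, adjusted p = 0.898 from limma). Relative to *Dll4* on the same array, *Dll1* was lower in the mutant by 0.42 on average (a change of -0.42) with no overlap between genotypes.
*Jag1*, a Jagged ligand of endocardium, myocardium and outflow tract, was at 10.20, 10.33 and 10.35 in the wildtype and 10.10, 9.66 and 10.23 in the mutant. Mutant replicate 2 stood apart from the other 5 arrays, and mutant replicate 3 lay within the wildtype range. The difference of -0.30 (standard error 0.151, 95% interval -0.64 to 0.05, adjusted p = 0.606 from limma) was -0.13 without mutant replicate 2 and -0.41 without mutant replicate 3, where its unadjusted p was 0.0243.
*Jag2*, the other Jagged ligand, was at 9.01, 8.85 and 8.74 in the wildtype and 8.82, 8.61 and 8.71 in the mutant. The genotypes overlapped, and the difference was -0.15 (standard error 0.111, 95% interval -0.41 to 0.10, adjusted p = 0.642 from limma). It was -0.079 when wildtype replicate 1 was left out.

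Among the target genes, *Heyl* was at 7.11, 7.14 and 6.93 in the wildtype and 6.70, 6.78 and 6.68 in the mutant. It encodes the Hey protein best known from vascular smooth muscle. The mutant pools were close together and all below the wildtype pools. The difference was -0.34 (standard error 0.101, 95% interval -0.57 to -0.11, unadjusted p = 0.00923 and adjusted p = 0.606 from limma), and the mutant mean was near the filter.
*Hey2*, whose window with 2 RBPJ sequences is printed above, was at 11.78, 11.68 and 11.55 in the wildtype and 11.42, 11.59 and 11.39 in the mutant. The genotypes overlapped through wildtype replicate 3 and mutant replicate 2. The difference was -0.20 (standard error 0.108, 95% interval -0.45 to 0.04, adjusted p = 0.606 from limma), and its unadjusted p of 0.0951 was 0.0414 without wildtype replicate 3.
*Hey1* was at 10.53, 10.74 and 10.76 in the wildtype and 10.78, 10.21 and 10.69 in the mutant. The highest and the lowest pool were both mutant. The difference of -0.12 (standard error 0.158, 95% interval -0.48 to 0.24, adjusted p = 0.788 from limma) became 0.06 without mutant replicate 2.
*Hes1*, a target of Notch and of other pathways, was at 9.44, 9.30 and 9.10 in the wildtype and 9.28, 9.33 and 9.14 in the mutant, with the mutant pools inside the wildtype range. The difference was -0.03 (standard error 0.118, 95% interval -0.30 to 0.24, adjusted p = 0.927 from limma), and its sign turned after quantile normalisation (0.05) and cyclic loess (0.06).
The differences of the 4 targets were also set against each other. Relative to *Hes1* on the same array, *Heyl* changed by -0.31 and *Hey2* by -0.17, and *Hey2* changed by 0.14 relative to *Heyl*, each with no overlap between genotypes. Of the 13 pairs within receptors, ligands and targets, 4 had no overlap, these and *Dll1* with *Dll4*. The exact two-sided permutation p of each was 0.1, the smallest that 3 arrays against 3 allow, and 0.325 after adjustment over the 13 pairs. The pairs among *Heyl*, *Hey2* and *Hes1* share genes and so are not independent of each other. Pairs of other genes on the array were not compared.

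**Figure D2:**
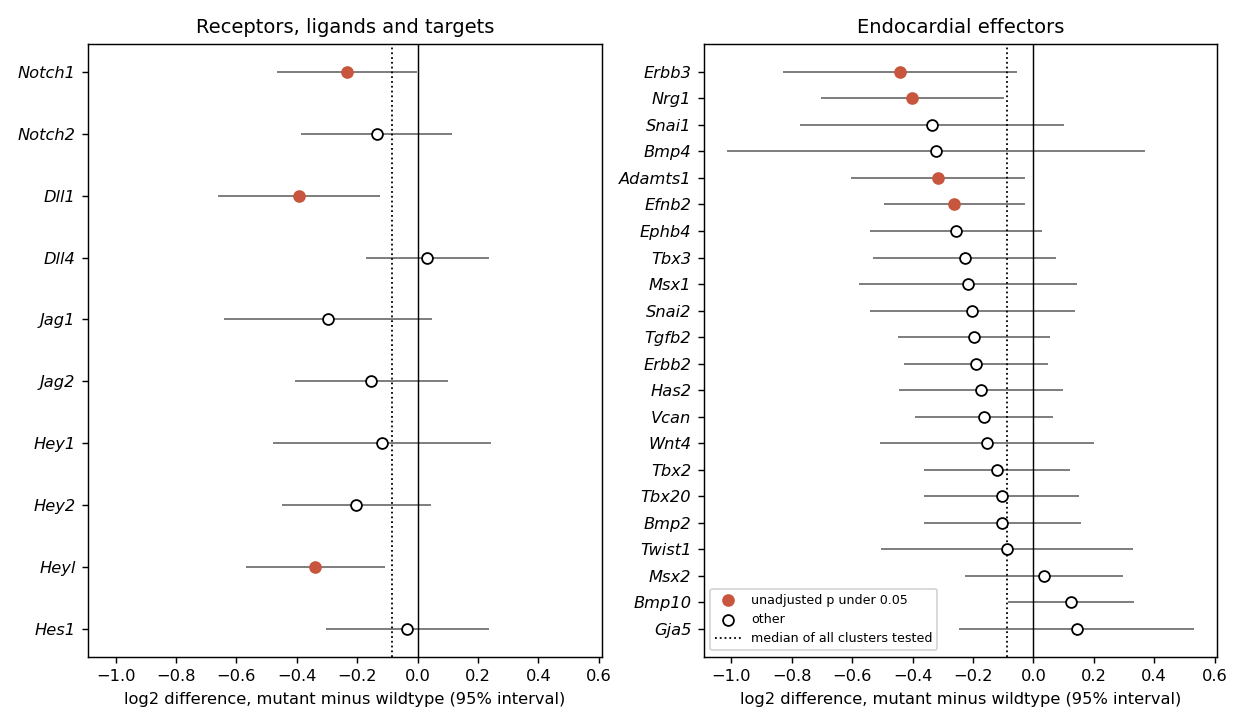
Log2 difference, mutant minus wildtype (horizontal axis), with its 95% interval from limma, for the 10 genes (left) and for 22 effectors linked to endocardial Notch (right), with filled points at an unadjusted p under 0.05 and a dotted line at the median of all clusters tested, -0.09. The filled points are *Notch1*, *Dll1* and *Heyl* on the left and *Erbb3*, *Nrg1*, *Adamts1* and *Efnb2* on the right, all below 0.

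The 10 genes did not vary in one way across the arrays. In 8 of them wildtype replicate 3 was the lowest wildtype pool, while in the other two, *Jag1* and *Hey1*, it was the highest wildtype pool and mutant replicate 2 the lowest of all. Of all 6 arrays, wildtype replicate 3 was the lowest for 2 of the 10 genes and for 29.6% of all clusters tested. Wildtype replicates 1 and 2 were each the lowest for 0 of the 10, and for 2.8% and 4.08% of all clusters. The share of all clusters with wildtype replicate 3 as the lowest wildtype pool was not counted. *Jag1* lay 0.58 below the mean of the other 5 arrays in mutant replicate 2 (deviation -0.58), and *Hey1* 0.49 below (deviation -0.49). Mutant replicate 2 held the lowest value of 4 of the 10 genes, and of 43.9% of all clusters tested. In lists described further on, it was lowest for 7 of 8 nuclear complex genes, 9 of 14 for ligand and receptor handling and 12 of 22 effectors. Of 15 erythroid markers, all with a higher mean in the mutant, 14 were lowest in wildtype replicate 3 and 0 in each mutant pool. Mutant replicate 2 was lowest for 1 of 6 ventricular markers, 3 of 10 cardiomyocyte markers and 2 of 9 other *Hes* family and feedback genes. It was also the lowest array for 4 of 6 atrial markers tested, among them *Nr2f1* (deviation -1.04) and *Nr2f2* (deviation -0.41), transcription factors of the atria and inflow tract, but the highest for *Nppa* (deviation 0.37), which encodes the atrial natriuretic peptide, and near the mean for *Stard10* (deviation 0.02). Of 6 epicardial and proepicardial markers it was the lowest for 4, namely *Aldh1a2* (deviation -1.07), *Tcf21* (deviation -1.01), *Tbx18* (deviation -0.88) and *Upk3b* (deviation -0.45), while *Wt1* was above the other arrays' mean (deviation 0.12) and *Upk1b* below it (deviation -0.17). Their summed linear level was 3755 to 4997 in the wildtype and 3052 to 3989 in the mutant. The summed level of 7 atrial markers with a cluster was 17997 to 21287 in the wildtype and 21184 to 23498 in the mutant. *Nppa* was the largest part of that sum, with a linear mean of 10223 in the wildtype and 12163 in the mutant. The 6 atrial markers tested had a median difference of -0.04, with 4 below 0 and 2 above 0. The part of these tissues in the values of *Jag1* and *Hey1* was not tested.

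**Figure D3:**
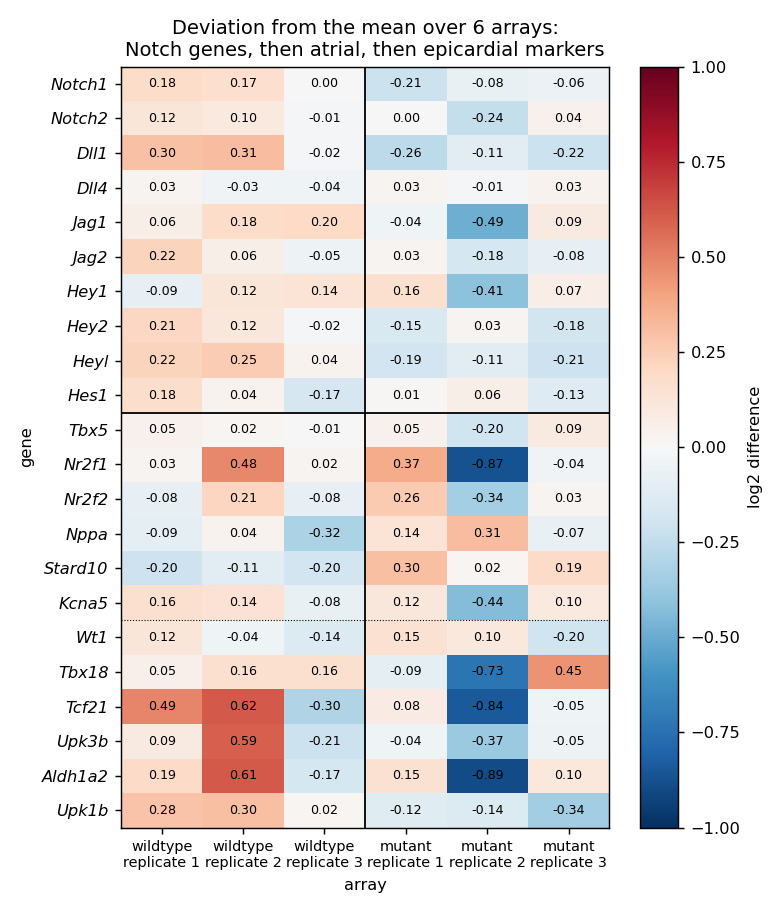
Deviation of each gene from its own mean over the 6 arrays (colour and printed number, log2) for the 10 Notch genes, the 6 atrial and the 6 epicardial markers tested (rows) in each pool (columns). *Jag1* and *Hey1* are at -0.49 and -0.41 in mutant replicate 2, in which *Nr2f1*, *Tbx18*, *Tcf21* and *Aldh1a2* are lowest as well.

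None of the other genes of the pathway passed the test. Of 54 further genes for receptors and ligands, their handling, gamma-secretase, the nuclear complex and other targets, 40 had a cluster of their own and 37 were tested. By limma, 0 of them passed an unadjusted or an adjusted p under 0.05, 31 lay below 0 (71.8% of all clusters did), and their median difference was -0.13 against -0.09 for all clusters. *Notch3*, a receptor of smooth muscle and pericytes, was at 8.97, 8.86 and 8.58 in the wildtype and 8.75, 8.48 and 8.65 in the mutant, a difference of -0.18 (adjusted p = 0.644). *Nrarp*, a feedback inhibitor that Notch itself switches on, was at 7.85, 7.72 and 7.86 in the wildtype and 7.47, 7.60 and 7.88 in the mutant, where replicate 3 reached the wildtype. Its difference was -0.16 (adjusted p = 0.656 from limma), and without mutant replicate 1 it was -0.069. *Rbpj* was at 6.00 to 6.84 in the wildtype and 6.20 to 6.49 in the mutant, below the filter, and was not tested. *Notch4* had no cluster of its own. The 14 genes tested for ligand and receptor handling, such as fringe enzymes and ubiquitin ligases, had a median of -0.12, the 3 of gamma-secretase -0.11, the 8 of the nuclear complex and its turnover -0.20, and the 9 other *Hes* family and feedback genes -0.04.

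Genes linked to endocardial Notch in trabeculation and cushion formation, among them genes of the myocardium such as *Bmp10*, were described as a further list. Of 22 tested, limma called 0 after adjustment. With an unadjusted p under 0.05 there were 4 lower and 0 higher, 6 had all mutant pools below the wildtype, and 19 lay below 0, with a median of -0.19. Over all clusters the shares were 5.9% lower, 1.68% higher, 9.59% with all mutant pools below the wildtype and 71.8% below 0, with a median of -0.09. *Nrg1*, the endocardial growth factor neuregulin that acts on the myocardium, was at 9.13, 9.07 and 9.26 in the wildtype and 8.56, 8.70 and 9.01 in the mutant. All mutant pools were lower, with a difference of -0.40 (standard error 0.133, 95% interval -0.70 to -0.10, unadjusted p = 0.0153 and adjusted p = 0.606 from limma). By the methods' t-test the unadjusted p of *Nrg1* was 0.0507 on log2 values and 0.0452 on linear values. *Erbb3*, a neuregulin receptor of the cushions, was at 8.55, 8.35 and 7.89 in the wildtype and 7.77, 7.72 and 7.99 in the mutant. Here the genotypes overlapped, and the difference was -0.44 (standard error 0.170, unadjusted p = 0.0304 from limma). It was -0.085 with the endothelial covariate described further on, and by the methods' test on log2 values *Erbb3* did not pass an unadjusted p of 0.05.
*Efnb2*, the ligand ephrin-B2 and an arterial marker, was at 10.14, 10.22 and 10.27 in the wildtype and 9.91, 9.86 and 10.07 in the mutant (difference -0.26, standard error 0.102, unadjusted p = 0.0317). *Adamts1*, a protease that breaks down cardiac jelly, was at 10.12, 10.19 and 10.10 in the wildtype and 9.77, 9.62 and 10.06 in the mutant (difference -0.31, standard error 0.126, unadjusted p = 0.0356). In both genes the genotypes did not overlap, and mutant replicate 3 came nearest to the wildtype. *Bmp10*, a growth factor of the trabecular myocardium, had all mutant pools above the wildtype, with a difference of 0.13 (adjusted p = 0.644 from limma). The count of these effectors and other pathway genes below an unadjusted p of 0.05, which was 4 of 59, turned on single arrays. It was 2, 1 and 19 without wildtype replicates 1, 2 and 3, and 0, 1 and 17 without mutant replicates 1, 2 and 3.

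**Figure D4:**
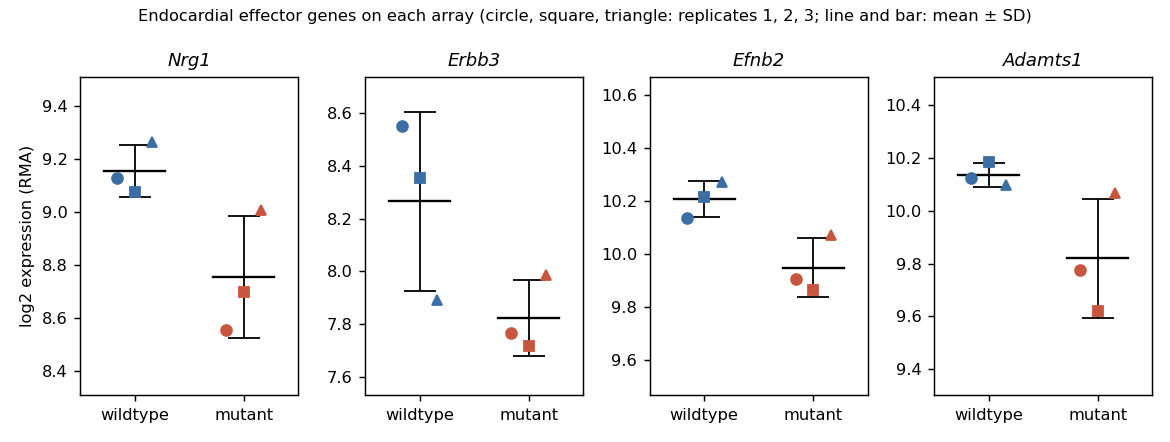
Log2 expression (vertical axis, RMA values; every panel spans 1.2 log2 units) of the 4 effectors with an unadjusted p under 0.05 in 3 wildtype (blue) and 3 mutant (red) pools, with the mean and SD. The genotypes are apart in *Nrg1*, *Efnb2* and *Adamts1* and overlap in *Erbb3* through wildtype replicate 3.

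Since whole hearts were measured, fewer cells of a type and less RNA per cell cannot be told apart. Markers of endothelium and endocardium, in which several of the 10 genes are made, were counted in the same fit. Of 20 tested, 17 lay below 0, limma gave 4 lower ones by unadjusted p and 0 by adjusted p, and their median difference was -0.19, where all clusters had 71.8% below 0, 5.9% lower by unadjusted p and a median of -0.09. Their summed linear level was 34192 to 36619 in the wildtype and 31162 to 35512 in the mutant. Their differences ran from -0.36 in *Nfatc1*, a transcription factor of the endocardium, to 0.29 in *Egfl7*, a secreted endothelial protein, and *Emcn* and *Cd34* were also above 0 (0.11 and 0.04). With the median of these markers on each array as a covariate, 0 of the 10 Notch genes were lower at an unadjusted p under 0.05, against 0.441% of all clusters in that fit. The differences of *Dll1*, *Heyl* and *Notch1* were then -0.24, -0.24 and -0.17, while all clusters had a median of 0.04. Erythroid markers were higher in the mutant, with 15 of 15 above 0, where 71.8% of all clusters lay below 0. Of the 15, limma gave 14 higher at an unadjusted p under 0.05, against 1.68% of all clusters, and 0 at an adjusted one. The median of these markers was 0.90, and their summed level was 4234 to 7379 in the wildtype and 8804 to 13559 in the mutant. Their median per array was 7.50 to 8.31 in the wildtype and 8.58 to 9.11 in the mutant. As the genotypes did not overlap in it, a fit with this median as a covariate can hardly separate it from genotype. In that fit all clusters had a median of -0.28, and *Dll1*, *Heyl* and *Notch1* were at -0.54, -0.40 and -0.37. There 1 of the 10 genes, *Jag2* at -0.44, was lower with an unadjusted p under 0.05, against 17.5% of all clusters. The 10 cardiomyocyte markers tested had a median of -0.06, and their summed level was 69314 to 71631 in the wildtype and 67968 to 69245 in the mutant. The part of these cells in the values of the Notch genes was not tested.

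**Figure D5:**
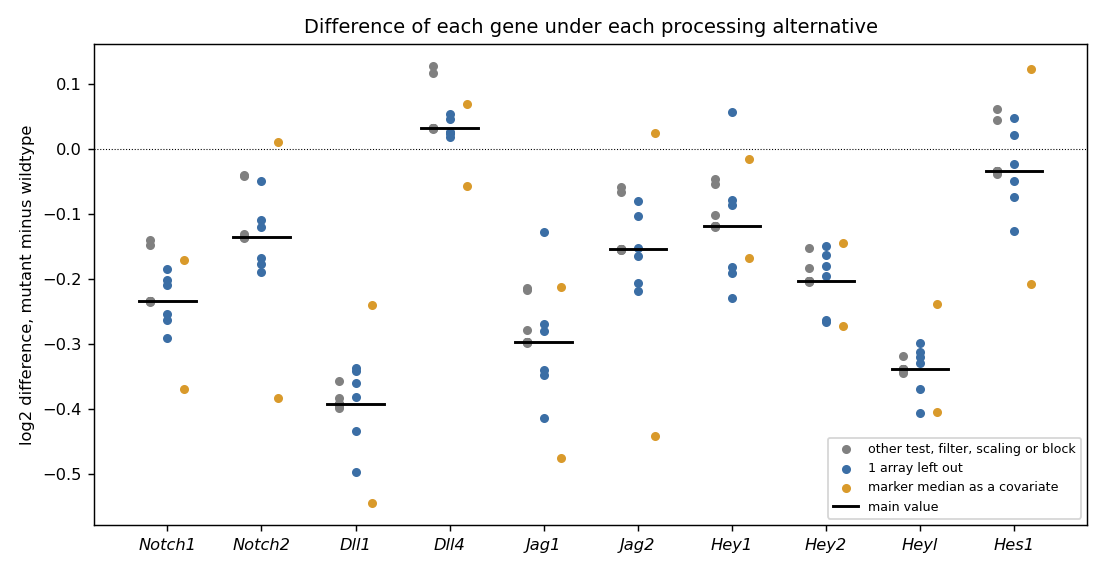
Log2 difference, mutant minus wildtype (vertical axis), of each of the 10 genes with the value as reported (black line) and the 20 alternatives (points, coloured by kind). *Notch1*, *Dll1*, *Jag1*, *Hey2* and *Heyl* stay below 0 throughout, and *Hes1* crosses 0 most often, in 5 of the 20.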

How the data were processed

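Per the labels and the methods, the authors hybridised RNA of E9.5 heart pools to Mouse Exon 1.0 ST arrays, summarised the probes over core gene predictions in the Affymetrix software and deposited RMA values on the log2 scale. For its version and the genome build, nothing is stated in the sources used here. All 6 columns were used. The table held 23332 clusters, of which 14996 named a single gene, 1019 more than one and 7317 no gene. For a gene with several clusters of its own, the one with the highest mean was taken. A cluster annotated to *Jag2* and another gene was not used.

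Clusters with a gene and a linear mean over 100 in the higher genotype (10439) were compared with limma 3.58.1 in R 4.3.3, mutant minus wildtype, two-sided. The code was tested on simulated data. The methods name a t-test, which was run as an alternative (the methods' t-test, equal variances). The members and lists were chosen with earlier results of these data known. Named were all 10 genes, pathway and effector genes at an unadjusted p under 0.05, *Notch3*, *Notch4*, *Rbpj* and *Nrarp*, and a few markers, while *Bmp10*, the atrial and epicardial genes, *Tnnt2*, *Myl7*, *Hes7*, *Uncx*, *Egfl7*, *Emcn* and *Cd34* were named after their values were seen. Pools are described as independent biological replicates. For the block, replicate numbers were taken as pairs. Deviations within pairs 1, 2 and 3 had correlations of 0.311, 0.142 and 0.458, against -0.424 to 0.303 for arrays with unlike replicate numbers. The value of pair 2 lay inside that range and that of pair 1 just above it, so the correlations do not establish the pairing. The sources do not say what the replicate numbers stand for. The number of arrays limits the precision. Sequences came from the RefSeq windows of GRCm38.p6, and figures were drawn with matplotlib 3.10.9.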

Additional observations from a re-analysis of the deposited data

How the results depend on the processing

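Over 20 alternatives of test, variance model, filter, scaling, block, covariate and left-out array, 0 of the 10 Notch genes and 0 of the other pathway and effector genes tested passed an adjusted p under 0.05 by limma or the methods' t-test, and *Dll1*, *Heyl*, *Notch1*, *Jag1* and *Hey2* kept their direction. The number of Notch genes lower at an unadjusted p under 0.05, 3 in the main setting, was 1 with the erythroid median and 0 with the endothelial median as a covariate, and lay between 1 and 4 when single arrays were dropped. The other pathway and effector genes lower at that threshold, 4 in the main setting, numbered 2 by the methods' t-test on log2 values, 13 after median centring, 2 after quantile normalisation, 1 after cyclic loess, 14 with the erythroid and 2 with the endothelial covariate, and 0 to 19 as each array was left out. Those higher, 0 in the main setting, numbered 2 by the methods' t-test on log2 and on linear values, 1 after quantile normalisation, 2 after cyclic loess, 1 with the replicate block, 3 with the endothelial covariate, and 0 to 1 as each array was left out. Over all clusters, those lower at an unadjusted p numbered 616, but 1165 after median centring, 1832 and 46 with the erythroid and the endothelial covariate, and 179 to 1913 as each array was left out.

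Signs turned in genes whose difference was within error. With the endothelial covariate *Notch2* was at 0.012, *Jag2* at 0.025, *Hes1* at 0.12 and *Notch3* at 0.11, and with the erythroid covariate *Dll4* was at -0.056. *Hes1* was also at 0.046 under quantile normalisation and at 0.062 under cyclic loess, and with single arrays left out it ran from -0.13 (without wildtype replicate 3) to 0.048 (without wildtype replicate 1), with 0.022 without mutant replicate 3. *Hey1* ran from -0.23 (without mutant replicate 1) to 0.057 (without mutant replicate 2). With the replicate block, the unadjusted call of *Notch1* was lost in limma and no other Notch gene changed its call. *Dll1* and *Heyl* had an unadjusted p under 0.05 in 18 and 17 of the 20 alternatives, *Notch1* in 9. Of the effectors, *Nrg1* had one in 15, *Erbb3* in 13, *Efnb2* in 12 and *Adamts1* in 10. The cause of these changes was not tested. *Dll1* and *Heyl* lay near the filter.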
